A study of Oryza sativa with 6 samples.

Results

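The methionine salvage pathway of rice (Oryza sativa, cultivar Kitaake) was examined in root tips of plants sharing their solution with Azolla filiculoides, a floating water fern (co-cultivated), and of plants grown alone (control), through 8 of the 37863 gene loci in the deposited count table. The loci are MTN (Os06g0112200), MTK1 (Os04g0669800), IDI2 (Os11g0216900), ARD (Os03g0161800), FDH (Os06g0486800), SAMS1 (Os05g0135700), SAMS2 (Os01g0323600) and SAMS3 (Os01g0293000), given here by RAP-DB identifier, and they lie on 6 chromosomes. MTN, MTK1, IDI2 and ARD belong to the salvage cycle itself, FDH handles a by-product, and the SAMS loci use its product. They were chosen by identifier, with the difference between co-cultivated and control libraries already known. That difference is therefore given for them as a description, with no test. A gene table of another rice assembly placed 6 of the 8 names on the chromosome, and in the order, that their identifiers give; MTN is not in that table, and its single FDH entry lies on another chromosome, so these 2 names rest on the choice of loci alone.

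Each group held 3 libraries of poly-A RNA, 1 for each hydroponic box of 4 plants, taken at 15 DAT from the last 1 cm of the roots. Plants of both groups shared the cultivar, the nutrient solution and the growth chamber regime. The solution carried growing fern in the co-cultivated boxes and was covered against algae in the control boxes, so the fern and the missing cover cannot be told apart. The libraries held 23477086 to 25120456 estimated counts in the co-cultivated group and 21551508 to 23703813 in the control group, and values are given as counts per 1000000 (CPM) after scaling of the libraries with TMM factors. The 4 loci listed as root markers (among them the silicon transporters LSI1 and LSI2) summed to 3813 to 6062 CPM in co-cultivated and 1696 to 2502 CPM in control libraries, and all 4 had positive fold changes. edgeR called 1 of them higher, the potassium transporter HAK1 (adjusted p = 0.0465), against 1.46% of all loci tested. That call was lost without any 1 co-cultivated library or control replicate 1, and under upper-quartile scaling (edgeR adjusted p = 0.0513). DESeq2 called all 4 higher, against 6.17% of all loci tested. All 4 had an unadjusted p under 0.05 in edgeR, against 20.4% of all loci tested. The part of these markers in the results was not tested. The 5 loci listed as leaf markers summed to 2.43 to 24.0 CPM in co-cultivated and 11.3 to 26.1 CPM in control libraries, and the Rubisco small subunit locus RBCS held at most 0.197 CPM in any library. Of the 4 leaf marker loci tested, 0 were called by edgeR, DESeq2 or limma-voom, and 1 of the 4 had an unadjusted p under 0.05 in edgeR, against 20.4% of all loci tested.

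Grasses take up iron by secreting mugineic acids, the phytosiderophores, which bind ferric iron outside the root. These compounds are built from S-adenosylmethionine by way of nicotianamine, and each nicotianamine made releases methylthioadenosine. The salvage pathway, or Yang cycle, turns methylthioadenosine back into methionine, from which S-adenosylmethionine is formed again. The same by-product comes from ethylene and polyamine synthesis.

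The 5 loci of salvage and formate removal were lower in every co-cultivated library than in any control library, at 9.39 to 23.3% of the control mean. One S-adenosylmethionine synthetase locus, SAMS2, was lower at 45.2%, a second, SAMS1, had overlapping groups, and the third, SAMS3, was barely detected. In whole root tips, fewer cells of a type and less RNA per cell cannot be told apart.

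MTN is listed as methylthioadenosine nucleosidase, the enzyme that opens the cycle by removing adenine from methylthioadenosine. It had 58.7, 60.8 and 50.2 CPM in co-cultivated replicates 1, 2 and 3, against 240.7, 255.4 and 231.4 CPM in control replicates 1, 2 and 3. The 3 values of each group lay close together and the groups were far apart, with a log2 fold change of −2.10 ± 0.15 (SE, co-cultivated over control).

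MTK1, methylthioribose kinase, phosphorylates the methylthioribose left by that reaction. It had 57.5, 52.2 and 48.9 CPM in the co-cultivated libraries and 556.7, 493.2 and 492.1 CPM in the control libraries, a log2 fold change of −3.28 ± 0.16 (SE). No library of one group came near the other. Its estimated counts were not whole numbers, and in each of the 6 libraries they summed with those of the adjacent locus Os04g0669900 to a whole number (to within 1e-06). The sum, which does not depend on how reads were divided within the pair, was 57.5 ± 5.74 CPM in co-cultivated and 593.5 ± 35.3 CPM in control libraries (SD, n = 3 each), a log2 ratio of −3.37. The part given to Os04g0669900 was 4.61 ± 1.6 CPM in co-cultivated and 79.5 ± 6.98 CPM in control libraries (log2 fold change −4.11 ± 0.27). That value depends on how reads were divided, so it is given with no test.

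IDI2, methylthioribose-1-phosphate isomerase, carries out the next step and was first named in barley for its induction by iron deficiency. It had 24.0, 22.9 and 24.8 CPM in the co-cultivated libraries, against 263.4, 204.6 and 296.4 CPM in the control libraries. The co-cultivated values were nearly equal, while the control values differed by a factor of up to 1.45, with replicate 2 the lowest. Its log2 fold change was −3.41 ± 0.19 (SE).

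ARD, acireductone dioxygenase, converts acireductone to the keto acid of methionine and releases formate. It had 57.1, 55.1 and 50.8 CPM in the co-cultivated libraries and 256.5, 294.2 and 211.5 CPM in the control libraries, a log2 fold change of −2.22 ± 0.17 (SE). Here control replicate 2 was the highest of its group and replicate 3 the lowest. In the gene table the entry that carries this name also carries the name of a heat shock factor, HSFA2D; the next locus in the count table, Os03g0161900, held between 48 and 108 estimated counts per library, against 1288 or more for ARD.

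FDH is listed as formate dehydrogenase, which oxidises the formate that the dioxygenase releases and is known in barley for its induction by iron deficiency. It had 85.8, 71.1 and 102.3 CPM in the co-cultivated libraries, against 962.6, 543.5 and 1070.0 CPM in the control libraries. It was the most uneven of the 5 within the control group, where replicate 2 stood well below the other libraries, but the groups did not overlap. Its log2 fold change was −3.31 ± 0.31 (SE).

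**Figure D1:**
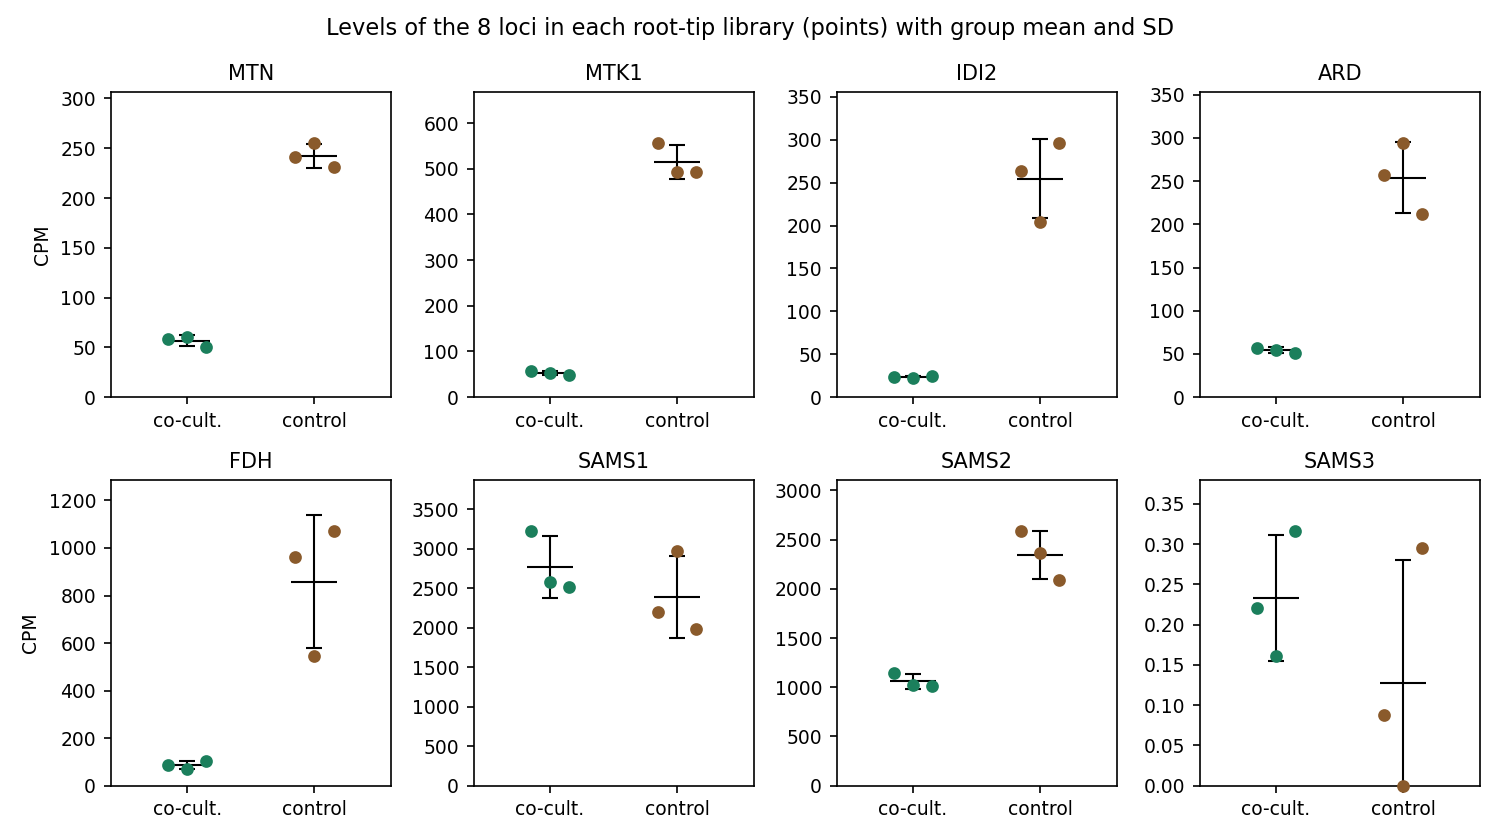
Level of each of the 8 loci in CPM (vertical axes start at 0 and differ between panels) in the 3 co-cultivated and 3 control libraries; points are libraries, the wide bar is the group mean and the whiskers its SD. MTN, MTK1, IDI2, ARD, FDH and SAMS2 are lower in all co-cultivated libraries, SAMS1 overlaps between the groups, and SAMS3 stays below 0.32 CPM.

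The co-cultivated mean was 23.3% of the control mean for MTN and 21.4% for ARD. It was 10.3% for MTK1, 9.39% for IDI2 and 10.1% for FDH. The 5 loci together held 0.0273, 0.0259 and 0.0282% of all counts in co-cultivated replicates 1, 2 and 3, against 0.232, 0.181 and 0.230% in control replicates 1, 2 and 3. Within the co-cultivated group the SD of their log2 CPM was 0.06 to 0.26, around the median of 0.17 for the 7112 loci that averaged 5 or more in log2 CPM. Within the control group it was 0.07 to 0.53, around a median of 0.24. Over the 15 other settings tried (other tools, scalings, filters, a replicate block and each library left out), their log2 fold changes stayed between −2.16 and −2.02 for MTN, −3.34 and −3.23 for MTK1, −3.55 and −3.29 for IDI2, −2.34 and −2.11 for ARD, and −3.56 and −3.12 for FDH.

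S-adenosylmethionine synthetase joins methionine to ATP and so supplies the substrate of nicotianamine synthesis, of ethylene and polyamine synthesis and of most methylation. SAMS2 had 1147.5, 1023.7 and 1012.8 CPM in the co-cultivated libraries, against 2584.2, 2361.1 and 2094.9 CPM in the control libraries. The groups did not overlap, and the log2 fold change was −1.14 ± 0.21 (SE). SAMS1 had 3220.8, 2573.7 and 2517.9 CPM in the co-cultivated libraries and 2198.3, 2974.4 and 1988.8 CPM in the control libraries, a log2 fold change of 0.21 ± 0.26 (SE). Control replicate 2 lay above 2 of the 3 co-cultivated libraries. SAMS3 held 17 estimated counts over the co-cultivated and 9 over the control libraries, from 0 to 8 per library, which is too few to pass the count filter or to show a difference.

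Within the synthetase pair, SAMS2 made up a smaller share of the counts in co-cultivated root tips. Its share of the SAMS1 and SAMS2 counts was 26.3, 28.5 and 28.7% in co-cultivated replicates 1, 2 and 3, against 54.0, 44.3 and 51.3% in control replicates 1, 2 and 3. These are shares of counts, not of transcripts, since no transcript lengths were used. The pair together held 0.378% ± 0.0370 of all counts in co-cultivated and 0.478% ± 0.0655 in control libraries (SD, n = 3 each), with overlapping groups: co-cultivated replicate 1 (0.421%) lay above control replicate 3 (0.408%).

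**Figure D2:**
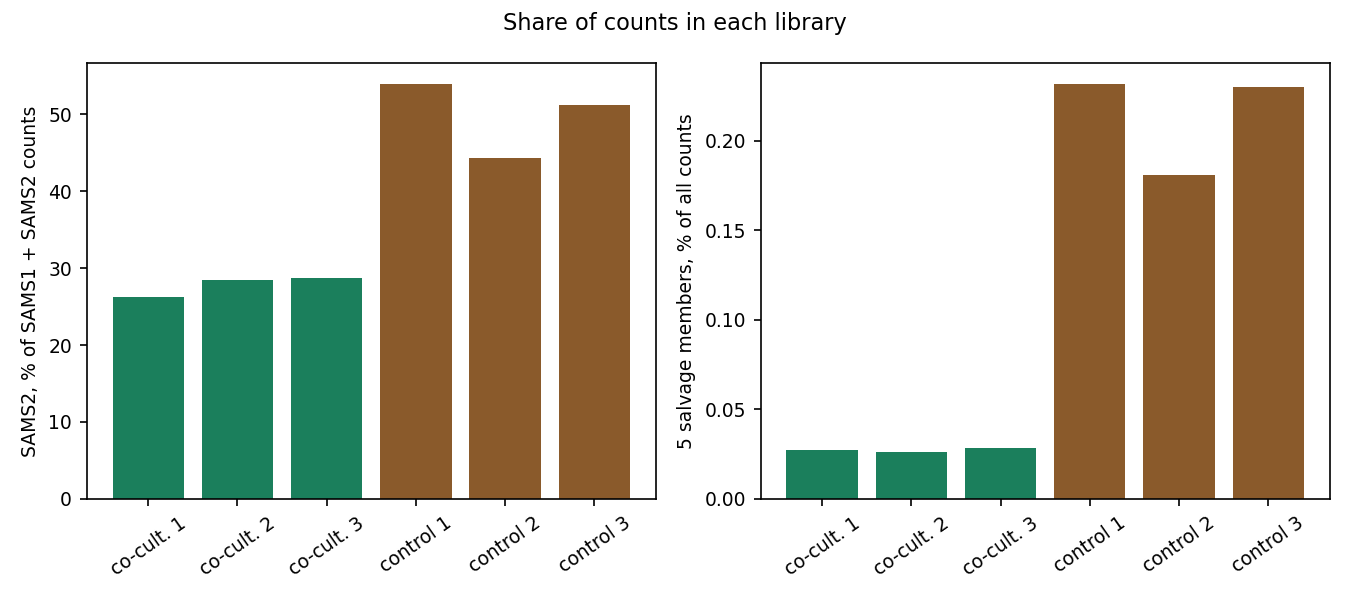
Left, the share of SAMS2 in the summed counts of SAMS1 and SAMS2 (percent); right, the share of MTN, MTK1, IDI2, ARD and FDH in all counts (percent); 1 bar per library. The SAMS2 share is 26.3 to 28.7% in co-cultivated and 44.3 to 54.0% in control libraries, and the salvage share is 0.0259 to 0.0282% against 0.181 to 0.232%.

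Across the whole table, edgeR's quasi-likelihood test at a Benjamini-Hochberg adjusted p under 0.05 called 1.46% of the 24615 tested loci higher and 1.17% lower in co-cultivated root tips (360 and 288 loci; 1518 and 1017 by DESeq2, and 56 to 361 and 83 to 493 by edgeR with 1 library left out). By that rule 6 of the 7 tested members count as lower, which follows from how they were chosen. The SAMS2 call was lost when any library other than control replicate 2 was left out. Over all tested loci, 15.3% had every co-cultivated library below every control library, as 6 of the 8 members did, and 12.4% had every co-cultivated library above every control library, as 0 of the 8 did. The median log2 fold change was −3.28 for the 5 salvage loci and −0.03 over all loci.

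Further loci were listed for neighbouring steps of the same metabolism, with p adjusted over all loci. These lists were also chosen with earlier results of these data known. Their calls and shares are therefore a description and not independent support. Of 17 such loci in 4 lists, 5 were called lower and 0 higher by edgeR, against 1.17% and 1.46% of all loci. Of the 17, 8 had an unadjusted p under 0.05 in edgeR, as did 20.4% of all loci tested. DESeq2 called 7 of the 17 lower and 1 higher, against 4.13% and 6.17% of all loci. Limma-voom called 7 lower and 0 higher, against 1.02% and 1.26% of all loci. For loci absent from the gene table, the place on a list rests on general knowledge and was not checked, and they are given by identifier alone.

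In the list of 5 further salvage loci, 3 were called lower by edgeR, against 1.17% of all loci. The list median was −2.72. It was not checked that all 5 are steps of the cycle itself. Os11g0484000 fell to 116.8, 115.8 and 95.3 CPM in the co-cultivated libraries, against 2338.5, 1606.0 and 2508.2 CPM in the control libraries (log2 fold change −4.30 ± 0.27, edgeR adjusted p = 0.00114). Os09g0453800 fell by 4.04 ± 0.20 on the log2 scale (53.7 ± 7.04 CPM in co-cultivated and 882.1 ± 66.7 CPM in control libraries, SD, n = 3 each; edgeR adjusted p = 0.00107). Os12g0589100 stood at 235.0 ± 20.1 CPM in co-cultivated and 1548.6 ± 64.1 CPM in control libraries (SD, n = 3 each), and fell by 2.72 ± 0.19 on the log2 scale (edgeR adjusted p = 0.00149). All 3 were called under every setting tried. ARD1 (Os10g0419400) is listed as another acireductone dioxygenase, but its gene table entry also carries a heat shock factor name, HSFA2C. It was at 5.56 ± 2.28 CPM in co-cultivated and 5.53 ± 3.32 CPM in control libraries (log2 fold change 0.01 ± 0.48, edgeR adjusted p = 0.994), a value whose sign changed between settings. Os07g0176900 was at 0.15 ± 0.12 (edgeR adjusted p = 0.535).

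Of the 5 loci listed for mugineic acid synthesis itself, 2 were called lower by edgeR, against 1.17% of all loci. All 5 had negative fold changes (median −7.34). NAAT1, which converts nicotianamine on the way to mugineic acids, fell to 14.4, 0.645 and 1.34 CPM in the co-cultivated libraries, against 963.6, 565.1 and 1117.5 CPM in the control libraries (log2 fold change −7.34 ± 1.25, edgeR adjusted p = 0.0317). This call was lost without co-cultivated replicate 2 or 3 or control replicate 1 or 3 (edgeR adjusted p up to 0.110). Os03g0237100 fell by 4.76 ± 0.40 on the log2 scale (edgeR adjusted p = 0.00325), also called with any 1 library left out. The nicotianamine synthase loci NAS1 and NAS2 stood at −8.06 ± 1.89 and −7.95 ± 1.68 (edgeR adjusted p = 0.0740 and 0.0581), with estimated counts that were not whole. Both were called by DESeq2 and limma-voom, and by edgeR without co-cultivated replicate 1 (−13.21 and −11.59, edgeR adjusted p = 0.00345 and 0.00555). NAS3 was at −0.67 ± 0.42 (edgeR adjusted p = 0.419).

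**Figure D3:**
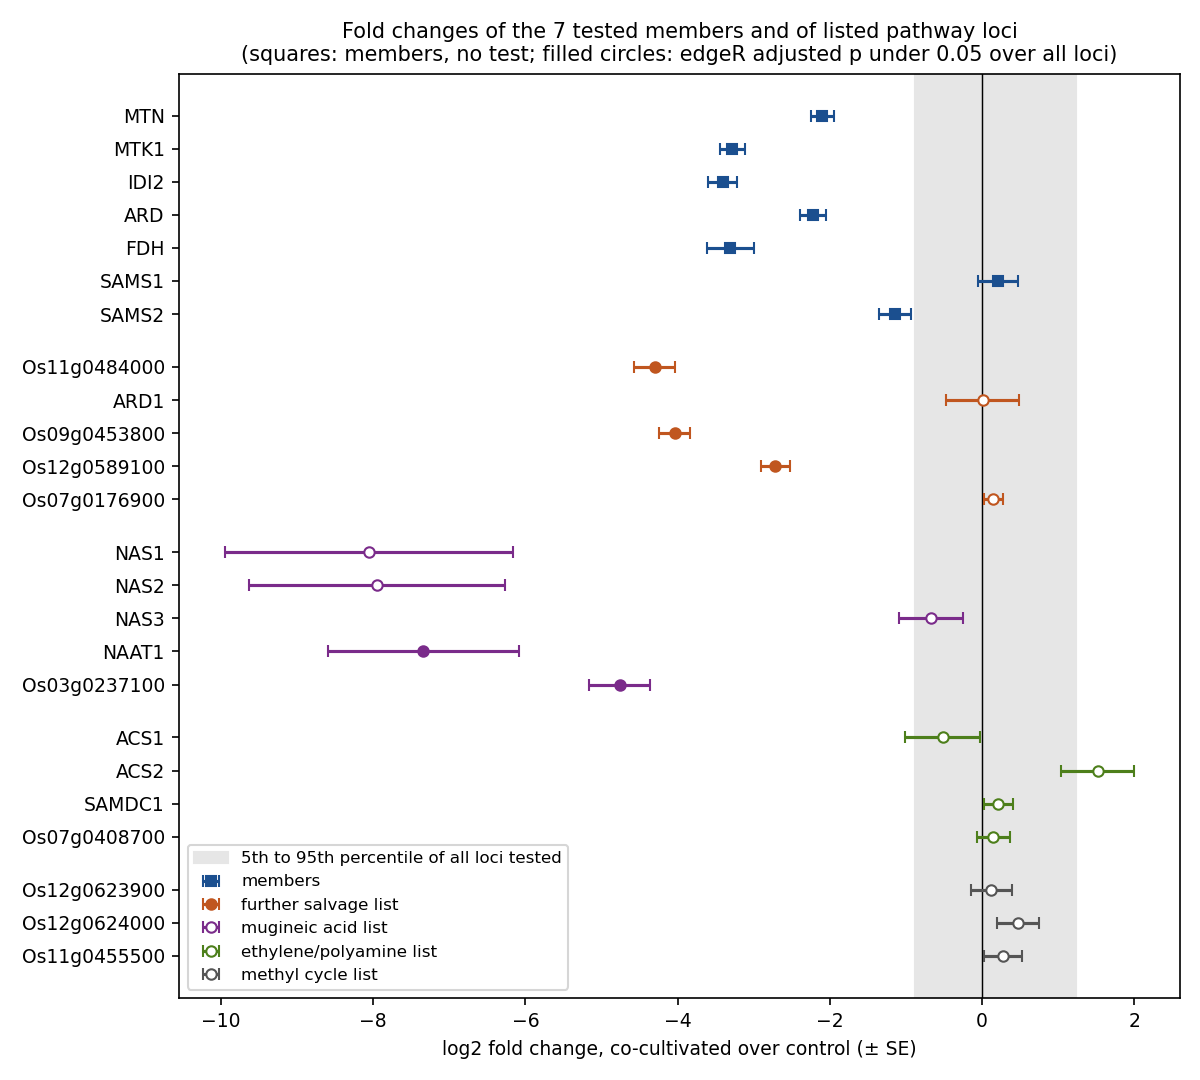
Log2 fold change (co-cultivated over control) with its SE for the 7 tested members (squares, no test) and for the loci of 4 listed neighbouring pathways (circles, filled where called by edgeR over all loci); the grey band spans the 5th to 95th percentile of all 24615 loci, −0.88 to 1.23. The 5 salvage members and SAMS2 lie left of the band, and SAMS1, the methyl cycle loci and SAMDC1 lie inside it.

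The other routes that use S-adenosylmethionine gave no call by edgeR, where 2.63% of all loci tested were called in either direction. In simulated data this fit recovered 1 of 50 loci changed 1.5-fold, 4 of 50 at 2-fold and 32 of 50 at 4-fold. A locus without a call is therefore not shown to be unchanged. The changed loci were drawn at random from all tested loci, so recovery at the levels of the listed loci was not measured. The list for ethylene and polyamine synthesis had 0 of 4 called, 1 at an unadjusted p under 0.05 (20.4% of all loci), 1 called higher by DESeq2 and 0 by limma-voom, with a median of 0.18. ACS2, an ACC synthase of ethylene formation, had 85.6, 35.1 and 36.1 CPM in the co-cultivated libraries, against 14.3, 11.1 and 29.2 CPM in the control libraries (log2 fold change 1.52 ± 0.48, edgeR adjusted p = 0.141, DESeq2 adjusted p = 0.0205). The fold change was 0.97 without co-cultivated replicate 1, with an edgeR adjusted p of 0.379, and 2.04 without control replicate 3, with one of 0.0875. ACS1, of the same family, was at −0.52 ± 0.49 (edgeR adjusted p = 0.596). SAMDC1, the decarboxylase that commits S-adenosylmethionine to polyamines, was at 0.21 ± 0.19 and Os07g0408700 at 0.15 ± 0.22 (edgeR adjusted p = 0.574 and 0.746). The 3 loci listed for the methyl cycle, Os12g0623900, Os12g0624000 and Os11g0455500, were at 0.12 ± 0.27, 0.47 ± 0.28 and 0.28 ± 0.25 (edgeR adjusted p = 0.838, 0.381 and 0.571), with 0 calls by edgeR, DESeq2 or limma-voom and 0 at an unadjusted p under 0.05. Os12g0623900 and Os12g0624000 had estimated counts that were not whole, so their values depend on how reads were divided between loci.

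The levels in each library were also set against the control mean. Relative to the control mean, MTK1 stood at −3.16, −3.30 and −3.39 in log2 CPM in co-cultivated replicates 1, 2 and 3. IDI2 stood at −3.39, −3.45 and −3.34 and MTN at −2.04, −1.99 and −2.27 in the same libraries. On the same scale NAS1 stood at −6.44, −12.41 and −13.29, NAS2 at −6.33, −11.14 and −11.69, and NAAT1 at −5.87, −10.18 and −9.21, each highest in replicate 1. The other 2 loci of that list differed from these: Os03g0237100 stood at −4.36, −5.71 and −4.51, and NAS3, lowest in replicate 1, at −0.61, −0.27 and −0.56. In co-cultivated replicates 2 and 3, NAS1 held 8.76 and 3.95 estimated counts, NAS2 37.24 and 25.05, and NAAT1 16 and 34. Their log2 values there rest on few counts and depend on the prior count of 2, those of NAS1 the most. The counts of NAS1 and NAS2 were not whole, so their values also depend on how reads were divided between loci. Whether the spreads differ between the lists was not tested.

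In the control group, FDH and IDI2 were lowest in replicate 2, at −0.60 and −0.30 relative to the control mean. IRT1, the ferrous iron transporter of the root surface, was also lowest there, with 112.9 CPM against 184.3 and 220.2 CPM in control replicates 1 and 3. So were NRAMP1, YSL15 and IRO3, listed for iron state, and all 5 loci listed for mugineic acid synthesis. This was not particular to iron loci, since ACS1, ACS2 and HAK1 were lowest there too. The remaining loci of the ethylene and polyamine list and all loci of the methyl cycle list were not. Other loci, such as MTK1, SAMS2 and LSI1, were lowest in control replicate 3. IRT1 and the other 3 loci listed for iron state (NRAMP1, YSL15 and IRO3) were all called lower in co-cultivated root tips by edgeR, against 1.17% of all loci tested. This list too was chosen with earlier results of these data known, so its calls are not independent support. The call of YSL15 was lost without co-cultivated replicate 2 or control replicate 1 or 3 (edgeR adjusted p up to 0.107). MTN and ARD were highest in control replicate 2, at 0.08 and 0.22. The 5 salvage members thus did not share 1 order of the control libraries.

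**Figure D4:**
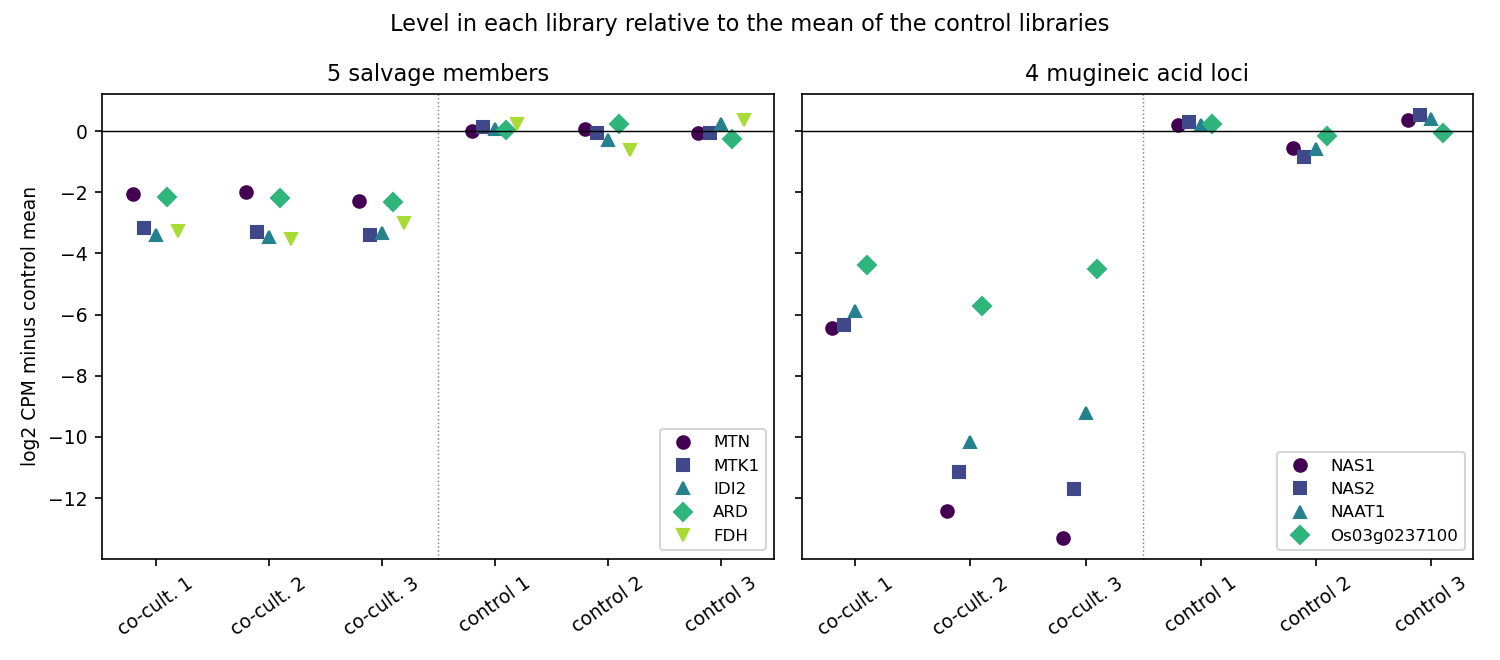
Log2 CPM of each locus minus its mean over the control libraries, by library; left, the 5 salvage members, right, 4 loci listed for mugineic acid synthesis; the dotted line divides co-cultivated (left) from control libraries. The salvage members lie between −3.53 and −1.99 in the co-cultivated libraries, while NAS1 runs from −6.44 to −13.29. The NAS1 values in co-cultivated replicates 2 and 3 rest on 8.76 and 3.95 estimated counts.

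The loci whose profile over the 6 libraries lay closest to the mean profile of the 5 salvage members were sought among 20016 others averaging 1 or more in log2 CPM, as the root mean square difference of centred log2 CPM. The closest was Os12g0589100, already in the list of further salvage loci, at 0.118, and the next Os12g0126200 at 0.144 (log2 fold change −2.73 ± 0.15), against a median of 1.44 over all these loci. The members themselves lay 0.227 to 0.399 from their own mean. Centred values keep the difference between the groups, which was known when the members were chosen. Closeness to this profile, and the distance of the median locus, therefore largely reflect that difference and are a description, not support. For the mean of SAMS1 and SAMS2 the closest was Os05g0156200 at 0.0286, but that mean averages 2 loci that each lay 0.354 from it, against a median of 0.376 over all loci, so it stood far from both.

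Of the 16 nearest tested loci, 1 on each side of each member, edgeR called 1 (6.25%), against 2.63% of all tested loci in either direction. The called locus was Os04g0669900, whose estimated counts summed with those of MTK1 to whole numbers. Its call depends on how reads were divided with a chosen member, so nothing about neighbours is drawn from that share. The other 15 had log2 fold changes from −1.58 to 1.5, and none passed the threshold.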

How the data were processed

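Per the labels' protocols, RNA of distal root segments was made into strand-specific poly-A libraries with dUTP. The authors' deposited table holds estimated counts per locus, not scaled between libraries, of which 1343 to 1409 per library were not whole. The submitters' processing notes name the build IRGSP-1.0 and DESeq2 1.28.1; the sources used here do not give the aligner, counting tool, strand setting or filters.

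The planned count test was kept: estimated counts were rounded and fitted with edgeR 4.0.16 in R 4.3.3 (filterByExpr, TMM, quasi-likelihood F test, two-sided, group as the single term, 4 residual degrees of freedom), with Benjamini-Hochberg adjustment over all 24615 loci that passed the filter. SE is the fold change divided by the root of F. CPM used the same factors, and log2 CPM a prior count of 2. DESeq2 1.42.0, limma-voom 3.58.1, 3 other scalings, 2 other filters, a robust fit, a replicate block and each library left out were alternatives. The fit was tested on simulated data first, where it recovered 44 of 50 loci changed 8-fold and fewer at smaller changes. Of its 91 calls there, 10 were false.

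Libraries of a group differed well beyond counting noise (chi-square per locus of 23.1 to 121), so none were merged. The labels call them biological replicates, 1 per box, but do not say whether the boxes came from 1 run of the experiment or several. The p-values therefore set the group difference against the spread between these boxes only. The replicate numbers were not used as pairs.

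The members and lists were chosen with earlier results of these data known. Names were checked against a RefSeq gene table of assembly ASM3414082v1, which shares 1 identifier with the count table, by chromosome and order: 24 of 38 listed names passed, 13 were absent and 1 lay elsewhere. Named genes are all members, the listed loci (by identifier where no name was checked; some marker loci only within their list) and the closest profiles (5 sought, at most 2 unnamed loci printed). Marker lists are named as checks of the tissue. A planned promoter motif search was not made, because no sequence was used here.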

Additional observations from a re-analysis of the deposited data

How the results depend on the processing

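The 7 tested members kept their fold changes to within the spread between replicates in all 105 values recomputed. DESeq2 called 1518 loci higher and 1017 lower, against 360 and 288 by edgeR. With 1 library left out the counts ran from 56 to 361 higher and from 83 to 493 lower: 56 and 86 without co-cultivated replicate 1, 226 and 126 without 2, 170 and 118 without 3, 65 and 83 without control replicate 1, 361 and 493 without 2, and 204 and 195 without 3. Of the 17 listed pathway loci, 4 to 7 were called lower with 1 library left out, and 0 higher in each of those fits; DESeq2 called 1 higher (ACS2). The sign of values near 0 changed for ARD1 (−0.01 with library totals only, 0.00 without a filter, and −0.34 to 0.60 with 1 library left out). It also changed for Os12g0623900 (−0.02 to 0.36) and the leaf marker CAB2R (−2.52 to 0.19), in both without control replicate 3. The cause was not tested.

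Whether the replicate numbers of the labels pair the libraries was not settled. Deviations of same-numbered libraries from their group means correlated at 0.0571, 0.146 and 0.174, against −0.203 to 0.0762 for libraries of unlike number. Replicate 1 of the co-cultivated group correlated more with control replicate 3 (0.0762) than with control replicate 1. With a replicate block, 403 loci were called higher and 296 lower. The block called 6 of the 17 pathway loci lower and 0 higher, adding NAS2 (edgeR adjusted p = 0.0389), and among the markers it added LSI1 (adjusted p = 0.0402) and lost HAK1 (adjusted p = 0.0701). Among the members, SAMS3 alone had too few counts to be tested, from 0 to 8 per library.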
